A study of Homo sapiens with 26 samples.

Results

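Retinoid handling was followed through 9 genes that bind, convert, degrade or respond to vitamin A derivatives: RBP4, RBP2, CRABP2, DHRS3, ALDH1A1, ALDH1A3, CYP26A1, CYP26B1 and RARRES1. They were taken by symbol out of the 62778 Ensembl gene identifiers in the deposited count tables, and all 9 were found in each of the 3 tables. They were selected on expression levels and fold changes already seen in these libraries, so their p-values set each difference against the spread between libraries and are not independent evidence. RNA had been sequenced from 3 established human pancreatic ductal adenocarcinoma lines in which HNF4A, the gene of the transcription factor HNF4α, was switched on or turned down. HNF4A has 2 promoters, P1 and P2, which give isoforms with different amino-terminal ends.

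All Panc10.05 and BxPC3 cells received doxycycline, a drug that turns on an inducible construct, and carried P1-a2, P2-a8 or a control (NC), with 2 libraries per group. The control is named GFP in the Panc10.05 titles and EV in the BxPC3 titles. BxPC3 cells had 500 ng/mL of doxycycline in every group. Panc10.05 cells had 25 ng/mL for P1-a2 and NC but 12.5 ng/mL for P2-a8, so isoform and dose cannot be told apart there. AsPC-1 cells were studied by CRISPR interference, in which a guide RNA places an inactive Cas9 at a promoter. The guides were sgP1E and sgP1J against P1, sgP2D and sgP2G against P2, sgDual2 and sgDual3 against both, and the control sgNC. Each guide had 2 libraries, which makes 4 per target and 2 for sgNC. No doxycycline is recorded for AsPC-1 and no retinoid is named for any group. The growth medium held 10% serum.

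Retinol travels in blood on RBP4 and inside cells on carriers such as RBP2. It is oxidised to retinal, which DHRS3 reduces back to retinol and which the ALDH1A enzymes oxidise further to retinoic acid. CRABP2 hands retinoic acid to nuclear receptors of the RAR family, which pair with RXR on DNA, and CYP26 enzymes break it down. DHRS3, the CYP26 genes and RARRES1 are well-known targets of retinoic acid.

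The 250 bases upstream of a RefSeq start are shown for 3 genes (GRCh38.p14), each written in the direction of its gene. RBP4 has 3 such starts and CYP26A1 has 2, and 1 of each is shown. RBP2 (chr3:139476517-139476766, minus strand) and RBP4 (chr10:93601745-93601994, minus strand) are shown because their counts were at most 3 per BxPC3 control library and at least 337 per library with P1-a2. CYP26A1 (chr10:93073643-93073892, plus strand) is shown as a gene with a known retinoic acid response element that stayed near 0 in every library. Capitals mark AGTTCA on either strand, the half-site of that element, and in CYP26A1 the whole pair of half-sites with its spacer.
RBP2: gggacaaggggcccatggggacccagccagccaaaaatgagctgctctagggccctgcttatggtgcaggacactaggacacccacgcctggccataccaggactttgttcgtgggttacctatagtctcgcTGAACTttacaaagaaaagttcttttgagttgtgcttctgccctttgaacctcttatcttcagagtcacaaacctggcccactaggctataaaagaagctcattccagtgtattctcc
RBP4: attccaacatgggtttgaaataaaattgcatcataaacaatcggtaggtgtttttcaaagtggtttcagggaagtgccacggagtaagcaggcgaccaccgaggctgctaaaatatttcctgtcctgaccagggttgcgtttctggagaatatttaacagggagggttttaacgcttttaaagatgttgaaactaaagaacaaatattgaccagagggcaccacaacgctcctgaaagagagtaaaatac
CYP26A1: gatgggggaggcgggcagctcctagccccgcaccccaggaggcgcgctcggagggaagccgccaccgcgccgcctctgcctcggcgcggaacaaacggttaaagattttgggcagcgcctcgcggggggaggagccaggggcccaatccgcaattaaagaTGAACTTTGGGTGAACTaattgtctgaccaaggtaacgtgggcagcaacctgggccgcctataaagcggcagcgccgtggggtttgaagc

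The 9 genes have 14 windows in the RefSeq promoter table, and motifs were sought on both strands of the same 250 bases in all 35116 windows. The direct repeat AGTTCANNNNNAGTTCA lies from base -90 to -74 of CYP26A1 and is in 3 windows of the whole table, 0.00854% of them. The looser form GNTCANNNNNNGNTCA, which takes in the first, is in 0.584% of all windows and, of the 14, again in CYP26A1 alone. The half-site AGTTCA by itself is in 8.80% of all windows and was found in CYP26A1 and RBP2. CAAAGTCCA and CAAAGGTCA, letters found in HNF4α binding sites, are in 0.325% and 0.339% of all windows, and the repeats GNTCANNGNTCA and GNTCANNNGNTCA are in 0.629% and 0.535%. None of these last 4 motifs was found in the 14 windows, which says only that these letters are not in these 250 bases. AGGTCA, in 12.1% of all windows, was found in 1 window of DHRS3, which lies inside the gene, and not in its other windows.

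The lowest and highest library totals were 34618745 and 46827673 counts in Panc10.05, 26369154 and 37483772 counts in BxPC3, and 26079388 and 50662077 counts in AsPC-1. The labels do not say whether the libraries of a group came from separate cultures, so p-values measure the spread between these libraries, which may be technical. HNF4A itself was at 0.149 ± 0.129 CPM (counts per 1000000 of the TMM-scaled library total, mean ± SD, n = 2) in the Panc10.05 controls, 11.8 ± 1.61 with P1-a2 and 37.6 with P2-a8. In BxPC3 it was at 0.771 ± 0.434, 10.7 ± 1.32 and 13.4 ± 1.15 CPM. In AsPC-1 it was at 213 ± 9.95 CPM with sgNC (n = 2), 129 ± 18.4 with sgP1, 86.5 ± 7.74 with sgP2 and 7.99 ± 4.84 with sgDual (n = 4 libraries each). Of these, sgDual alone passed against sgNC (log2 fold change -4.73, adjusted p = 6.25e-06, edgeR), and sgP1 and sgP2 did not (-0.72 and -1.30, adjusted p = 0.615 and 0.0751). Here and below, values for sgP1, sgP2 and sgDual pool 2 guides with 2 libraries each. Their SDs and tests mix guides with libraries, and guides are not replicates of a target. With sgDual, HNF4A also differed by replicate number. It was at 3.19 and 4.83 CPM in replicate 1 of sgDual2 and sgDual3, and at 10.3 and 13.6 CPM in replicate 2. Whether this bears on the levels of the 9 genes was not tested. Between sgP1E and sgP1J, 14.5% of all genes passed. The counts do not separate the isoforms. All 5 ductal epithelial markers examined were above 1 CPM in every library, whereas the acinar and endocrine markers summed to at most 1.12 CPM in any library. Leukocyte markers summed to at most 9.86 CPM in any library. Endothelial markers summed to at most 9.12 CPM, in BxPC3, where 2 of 4 were at 1 CPM or more in every library. Of 5 fibroblast markers 1 was above 1 CPM in every library of each line, and their sum ran from 131 to 301 CPM in AsPC-1, where LUM alone had a mean of 203. The part of such cells in the results was not tested.

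Positions given with the genes come from GENCODE v29 (GRCh38, first base counted as 1). The carriers and enzymes differed between the lines before any comparison was made. RARRES1 had 0 counts in all 6 Panc10.05 libraries and RBP4 had at most 1. RBP2 had 0 counts in both control libraries of each induced line and at most 1 count in any AsPC-1 library. ALDH1A3 was the gene of the set with the most reads per kilobase of exon in BxPC3 and AsPC-1 controls, at 211 and 163 CPM per kb, against 1.14 CPM per kb in Panc10.05. Per kilobase, ALDH1A3 was above ALDH1A1 in the controls of all 3 lines, where ALDH1A1 was at 0.586 in BxPC3, 21.1 in AsPC-1 and 0.0186 in Panc10.05. CRABP2 was at 136 CPM in BxPC3 and 27.7 in Panc10.05 controls but at 1.82 in AsPC-1. Line, construct and sequencing project change together, so these levels were not tested against each other.

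**Figure D1:**
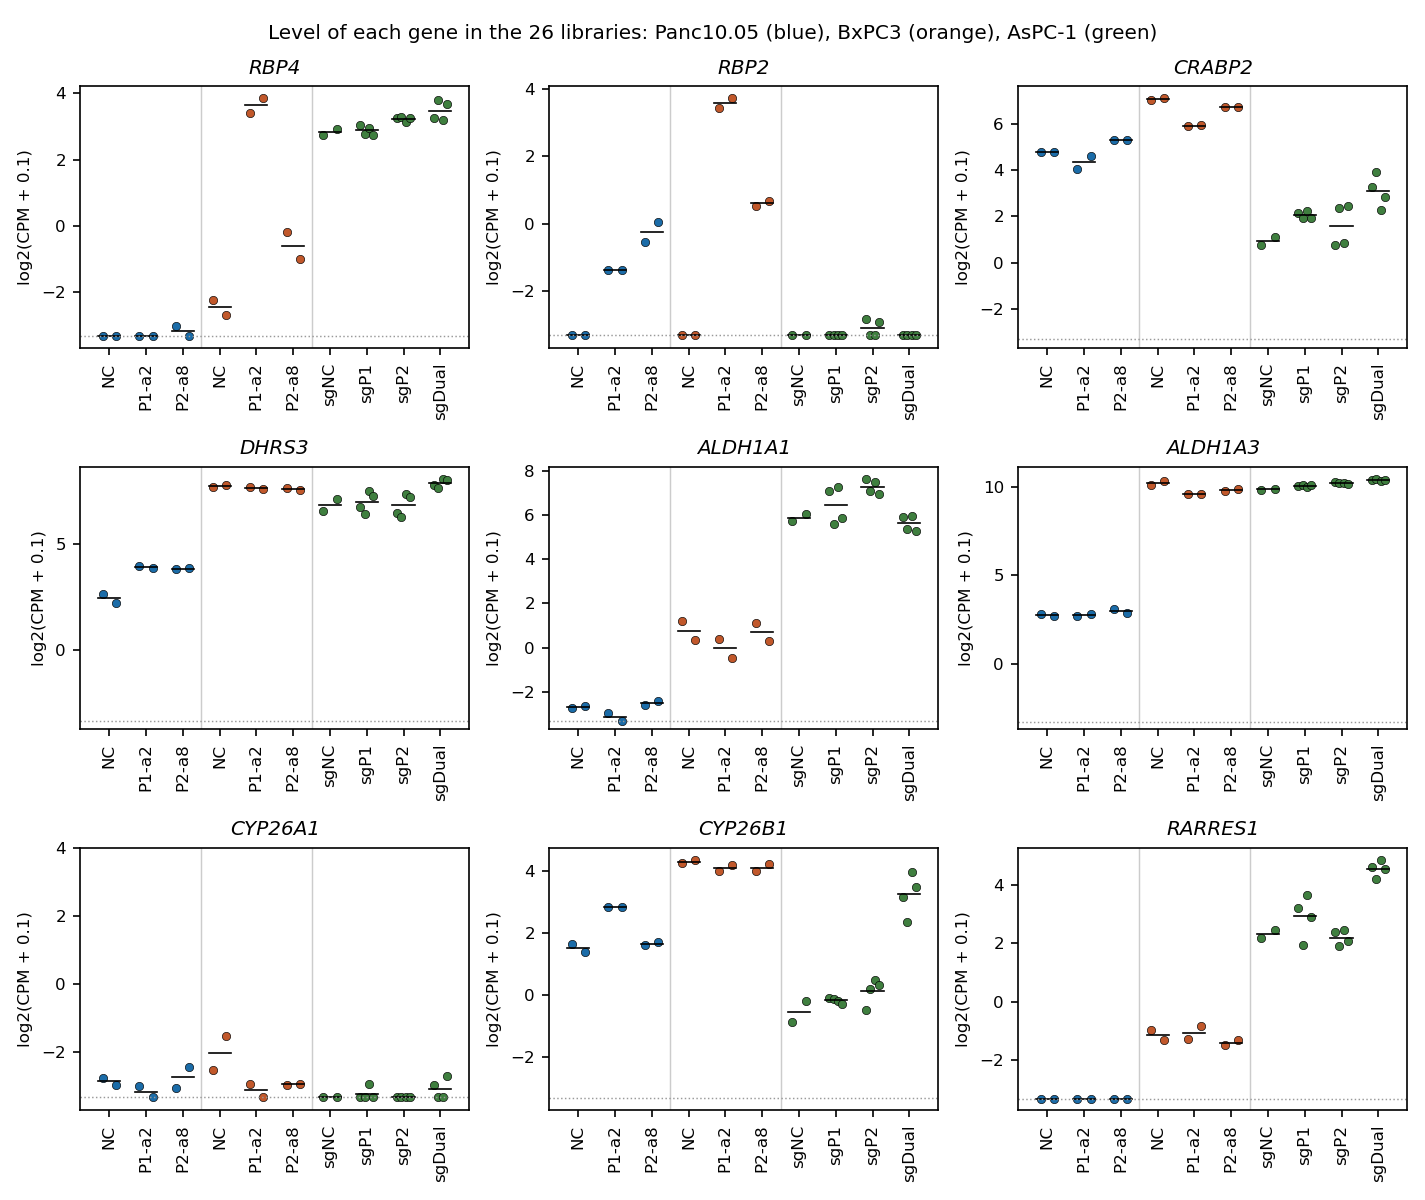
Level of each of the 9 genes in the 26 libraries, as log2(CPM + 0.1), with 1 point per library and a line at the group mean of those log values. The dotted line is 0 CPM. RBP2 and RBP4 climb in BxPC3 with P1-a2, CYP26A1 stays near 0 in every group, and CYP26B1 and RARRES1 are highest within AsPC-1 in the sgDual libraries.

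In Panc10.05, 5 of the 9 genes had enough reads to be tested, and 3 of them rose with P1-a2: RBP2, DHRS3 and CYP26B1. With P2-a8 the 3 that rose were RBP2, DHRS3 and CRABP2. Over all 17247 genes tested, 62.0% passed the same threshold (edgeR quasi-likelihood test, adjusted p under 0.05) with P1-a2 and 46.2% with P2-a8, so 3 of 5 is near the background. In the upward direction alone the shares were 31.5% and 23.7%. In BxPC3, 8 of the 9 were tested, and both isoforms raised RBP2 and RBP4 and lowered CRABP2 and ALDH1A3. Of the 17635 genes tested there, 32.0% passed with P1-a2 (17.1% up and 14.9% down) and 6.99% with P2-a8 (4.30% up and 2.69% down). In AsPC-1, 7 were tested. None passed with sgP1, ALDH1A3 alone passed with sgP2, and 6 rose with sgDual, all but ALDH1A1. The background was 0.265% of 16992 genes for sgP1, 3.42% for sgP2 and 35.6% for sgDual, of which 17.8% upward. For sgP1 the edgeR count of 0 stands beside 1 at an unadjusted p under 0.05 and 1 with DESeq2. Between sgP2 and sgP1, where 4.30% of all genes passed, none of the 7 did with edgeR, against 3 at an unadjusted p under 0.05 and 2 with DESeq2. RBP2 in both induced lines, and RBP4 in BxPC3, passed the low-count filter only through the groups that carry HNF4A, so they had to differ once tested. Their p-values and their places in these counts are no support for a change. The comparisons of a line share their control libraries.

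**Figure D2:**
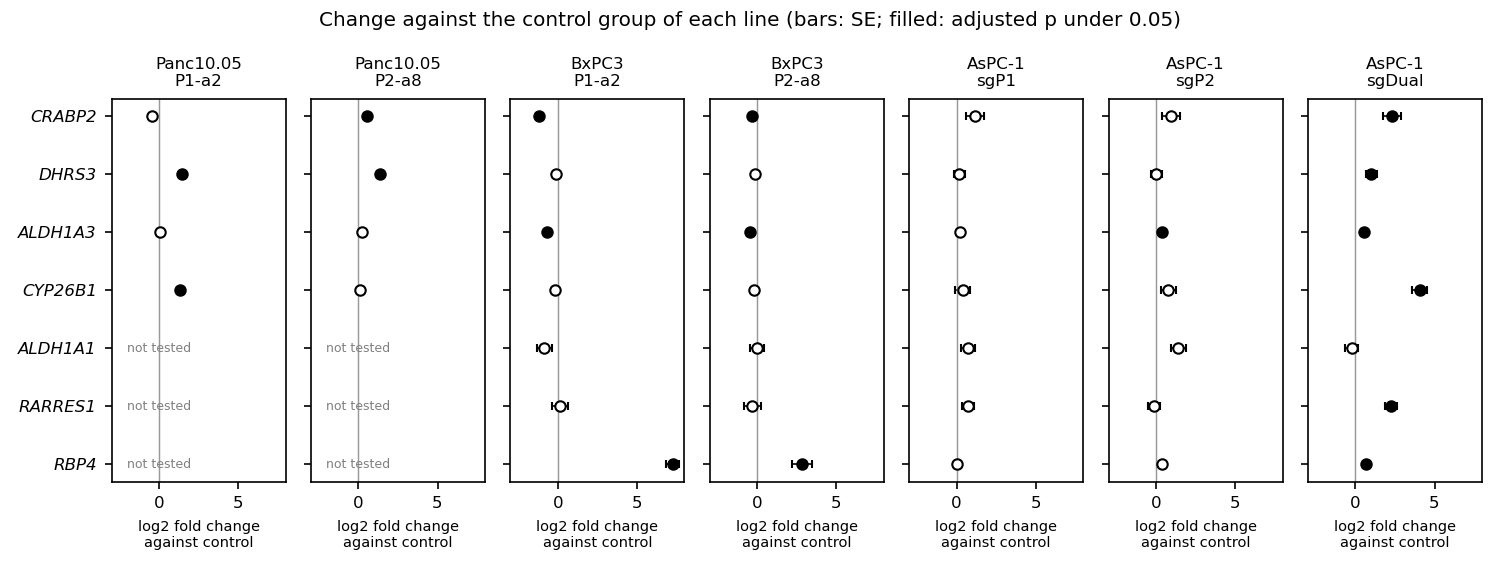
Log2 fold change of 7 of the genes against the control group of their line in 7 comparisons, with bars of 1 SE and filled points where the adjusted p was under 0.05. RBP2 is left out because its control libraries had 0 counts, and CYP26A1 because it was not tested. CRABP2 and ALDH1A3 lie below 0 in BxPC3 and above 0 with sgDual in AsPC-1, and CYP26B1 has its largest change with sgDual. In Panc10.05 CRABP2 lies below 0 with P1-a2 and above 0 with P2-a8.

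RBP2 (chr3:139452884-139480747), the retinol carrier of the intestinal lining, was at 0 counts in the NC libraries of both induced lines. In BxPC3 it had 0 counts in both NC libraries, 344 and 489 counts with P1-a2, and 47 and 49 counts with P2-a8. These are 10.8 and 13.2 CPM with P1-a2 and 1.34 and 1.5 CPM with P2-a8. No library overlapped between the 3 groups. Against a floor of 3 counts per NC library, RBP2 was at least 124-fold higher with P1-a2 and at least 14.7-fold higher with P2-a8. No p-value is given with these folds, because RBP2 passed the low-count filter only through the groups that carry HNF4A. P1-a2 stood above P2-a8 by 3.08 on the log2 scale (SE 0.19, adjusted p = 8.61e-06, edgeR). In that comparison 22.5% of all genes passed, and 4 of the 8 genes did.

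In Panc10.05 the order of the isoforms for RBP2 was the opposite. The counts were 0 in both NC libraries, 11 and 13 with P1-a2 (0.282 and 0.283 CPM), and 27 and 33 with P2-a8 (0.577 and 0.930 CPM). RBP2 was at least 3.55-fold higher with P1-a2 and at least 9.48-fold higher with P2-a8, again given without p-values for the same reason. The log2 difference of P1-a2 from P2-a8 was -1.38 (SE 0.44, adjusted p = 0.00917, edgeR), in a comparison where 46.9% of all genes and 3 of the 5 passed. That call was lost with DESeq2 (-1.41, adjusted p = 0.0943) and without any of 3 libraries: with edgeR the adjusted p became 0.0553 and 0.0621 without P1-a2 replicates 1 and 2, and 0.191 without P2-a8 replicate 2. HNF4A was also higher with P2-a8 than with P1-a2 in Panc10.05, at the lower dose of doxycycline. The difference between the lines in P1-a2 against P2-a8 was -4.44 for RBP2 on the log2 scale (Panc10.05 minus BxPC3, SE 0.43, adjusted p = 1.80e-07, edgeR), and 22.3% of 19372 genes passed that test. In AsPC-1 RBP2 was at 0 counts in 12 of 14 libraries, and sgP2D replicate 1 and sgP2G replicate 2 had 1 count each.

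RBP4 (chr10:93591687-93601744), which carries retinol in plasma and is made chiefly by liver, changed in BxPC3. It had 3 and 2 counts in the NC libraries, 27 and 13 with P2-a8, and 337 and 536 with P1-a2. In CPM these were 0.112 and 0.0546, then 0.772 and 0.398, then 10.6 and 14.5. The 3 groups did not overlap. The ratio of pooled, depth-scaled counts was 161 for P1-a2 over NC (95% interval for counting error 68.7 to 497). For P2-a8 over NC it was 7.51 (2.96 to 24.4). No p-value is given with these ratios, because RBP4 passed the low-count filter only through the groups that carry HNF4A. The P2-a8 rise rests on few reads. Its edgeR call was lost in 3 of 4 fits that left out a library. The log2 fold change was 2.27 without P2-a8 replicate 1, 3.34 without NC replicate 1 and 2.35 without NC replicate 2. The contrast of P1-a2 with P2-a8 had already been singled out for RBP4 in this line, so only the levels are given for it: 12.5 ± 2.77 CPM with P1-a2 and 0.585 ± 0.265 with P2-a8 (SD, n = 2 each).

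Panc10.05 had 1 RBP4 count in all 6 libraries together, so no response was detectable there. In AsPC-1, where RBP4 is read in all libraries, it was at 6.62 and 7.48 CPM with sgNC. The 4 sgP1 libraries lay between 6.58 and 8.17 CPM, the 4 sgP2 libraries between 8.61 and 9.65, and the 4 sgDual libraries between 9.01 and 13.8. RBP4 thus rose in AsPC-1 with both HNF4A promoters targeted, by 0.67 with sgDual (log2, SE 0.16, adjusted p = 0.00522, edgeR), and had also risen in BxPC3 when HNF4A was induced. The sgDual call was lost without sgNC replicate 1 (0.59, adjusted p = 0.0825, edgeR). RBP4 was higher with sgDual than with sgP1 by 0.62 (adjusted p = 0.00169, edgeR). Against sgP2 the difference did not pass (0.28, adjusted p = 0.0908, edgeR). It passed in 3 of 16 alternative fits, each without an sgDual2 library or the sgDual2 guide. Both sgDual2 libraries lay within the range of the 4 sgP2 libraries. The 4 sgDual libraries did not sit together. With sgDual3 RBP4 was at 13.2 ± 0.836 CPM and with sgDual2 at 9.26 ± 0.344, and the guides differed by -0.51 (SE 0.10, adjusted p = 0.0333, edgeR), a call lost without any 1 of the 4 libraries (adjusted p from 0.121 to 0.437). FFAR4, a fatty acid receptor gene on the opposite strand that overlaps RBP4 without sharing exon bases, was at 3.87 and 4.43 CPM with sgNC and at 8.98 to 10.2 CPM with sgDual. Whether the authors counted by strand is not given in the sources used here, and the part of FFAR4 reads in the RBP4 counts was not tested. In BxPC3 FFAR4 had at most 2 counts.

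CRABP2 (chr1:156699606-156705816), the carrier that brings retinoic acid to its receptors in the nucleus, fell with HNF4A in BxPC3. It was at 131 and 139.8 CPM in NC, 106 and 106 with P2-a8, and 59.6 and 61.6 with P1-a2. The groups did not overlap and were ordered NC, P2-a8, P1-a2. CRABP2 was 2.24-fold lower with P1-a2 (SE 0.06 on the log2 scale, adjusted p = 1.39e-07, edgeR) and 1.28-fold lower with P2-a8 (SE 0.06, adjusted p = 0.00303, edgeR). The log2 difference between the isoforms was -0.80 (SE 0.06, adjusted p = 1.15e-05, edgeR).

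In Panc10.05 CRABP2 was at 27.9 and 27.5 CPM in NC, 16.3 and 24.8 with P1-a2, and 39.1 and 40.0 with P2-a8. The P1-a2 libraries were below NC and the P2-a8 libraries above it, without overlap. P1-a2 against NC did not pass (-0.42, SE 0.17, adjusted p = 0.0745, edgeR). It passed without P1-a2 replicate 2, the higher of its pair (-0.76, adjusted p = 6.27e-09, edgeR). P2-a8 against NC passed narrowly (0.51, SE 0.17, adjusted p = 0.0445, edgeR) and was lost without any 1 of its 4 libraries, with adjusted p from 0.205 to 0.324 and a log2 fold change of 0.50 to 0.53. CRABP2 was lower with P1-a2 than with P2-a8 by -0.93 (SE 0.17, adjusted p = 0.00370, edgeR). That call too was just lost without P2-a8 replicate 1 (-0.96, adjusted p = 0.0512, edgeR) or replicate 2 (-0.94, adjusted p = 0.0502, edgeR).

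In AsPC-1 CRABP2 was low, at 1.58 and 2.05 CPM with sgNC. With sgDual it was at 9.64 and 4.80 CPM for sgDual2 and 15.2 and 7.13 for sgDual3, all above sgNC. It rose by 2.33 (log2, SE 0.57, adjusted p = 0.00737, edgeR), but not without sgNC replicate 1 (2.16, adjusted p = 0.0947, edgeR). With sgP1 the 4 libraries lay between 3.68 and 4.61 CPM, also all above sgNC, and the difference did not pass (1.17, SE 0.56, adjusted p = 0.587, edgeR). The P2 guides disagreed. CRABP2 was at 1.64 ± 0.079 CPM with sgP2D and 5.21 ± 0.244 with sgP2G (SD, n = 2 each), a log2 difference of -1.66 (SE 0.42) that edgeR did not call (adjusted p = 0.0950) and DESeq2 did (adjusted p = 0.000441). CRABP2 thus fell in BxPC3 with HNF4A induced and rose in AsPC-1 with both promoters targeted.

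DHRS3 (chr1:12567910-12617731), the reductase that returns retinal to retinol, rose in Panc10.05. It was at 6.20 and 4.55 CPM in NC, 15.2 and 14.5 with P1-a2, and 13.8 and 14.6 with P2-a8. Both isoforms stood apart from NC and overlapped each other. The rise was 1.46 with P1-a2 (log2, SE 0.12, adjusted p = 3.76e-14, edgeR) and 1.39 with P2-a8 (SE 0.12, adjusted p = 6.19e-13, edgeR). In BxPC3 DHRS3 was high in all groups, at 203 and 217 CPM in NC, 204 and 192 with P1-a2 and 198 and 186 with P2-a8. Its changes against NC there were -0.09 (SE 0.06, adjusted p = 0.307, edgeR) and -0.13 (SE 0.06, adjusted p = 0.251, edgeR).

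In AsPC-1 DHRS3 was at 94.8 and 136 CPM with sgNC. The sgDual2 libraries were at 219 and 264 CPM and the sgDual3 libraries at 197 and 252, all above sgNC. The rise with sgDual was 1.01 on the log2 scale (SE 0.36, adjusted p = 0.0484, edgeR). It did not pass in any fit without 1 library (adjusted p from 0.0527 to 0.319, and 0.78 to 1.30 in size), without either sgDual guide (0.131 and 0.0983), with no filter (0.128) or with scaling by total counts (0.0532), all by edgeR. DESeq2 kept the call, and so did an edgeR fit with a term for the replicate number (adjusted p = 0.00022), which the main fit does not have. The replicate 2 library was above the replicate 1 library for all 7 guides, by 1.21 to 1.91 times with a median of 1.71. With sgP1 the libraries ran from 83.5 to 179.6 CPM and with sgP2 from 75.9 to 163, both overlapping sgNC. DHRS3 was higher with sgDual than with sgP2 by 0.98 (SE 0.29, adjusted p = 0.0144, edgeR) and than with sgP1 by 0.84 (SE 0.29, adjusted p = 0.0372, edgeR), where 46.4% and 38.3% of all genes passed. The call against sgP1 was lost without sgP1E or sgP1J replicate 1, sgDual2 replicate 1 or 2, or sgDual3 replicate 2 (log2 fold changes of 0.75, 0.67, 0.87, 0.77 and 0.80, and adjusted p of 0.0922, 0.0935, 0.0546, 0.0847 and 0.0790). It was also lost with no filter (adjusted p = 0.102) and without any 1 of the 4 guides (0.0644 to 0.147). The call against sgP2 was lost without guide sgP2G (0.91, adjusted p = 0.0639, edgeR) or sgDual2 (0.94, adjusted p = 0.0697, edgeR). The calls against sgP1 and sgP2 were both kept with the term for the replicate number and with DESeq2.

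ALDH1A3 (chr15:100877714-100916626), which oxidises retinal to retinoic acid, fell in BxPC3. It was at 1129 and 1308 CPM in NC, 866 and 951 with P2-a8, and 771 in both P1-a2 libraries. The groups were ordered NC, P2-a8, P1-a2 without overlap, as for CRABP2. ALDH1A3 fell by 0.66 with P1-a2 (log2, SE 0.07, adjusted p = 5.18e-05, edgeR) and by 0.42 with P2-a8 (SE 0.07, adjusted p = 0.00468, edgeR). The isoforms differed by -0.24 (SE 0.07, adjusted p = 0.0354, edgeR), a call lost without P1-a2 replicate 1 (adjusted p = 0.129), P1-a2 replicate 2 (0.139) or P2-a8 replicate 2 (-0.15, adjusted p = 0.248, edgeR). In Panc10.05 all 6 libraries lay between 6.32 and 8.40 CPM, and neither isoform passed against NC.

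In AsPC-1 ALDH1A3 was at 928 and 955 CPM with sgNC, 1048 to 1115 with sgP1, 1185 to 1271 with sgP2 and 1328 to 1407 with sgDual. The 4 groups did not overlap, and their order is the reverse of the order of HNF4A levels. Against sgNC the differences were 0.20 with sgP1 (SE 0.06, adjusted p = 0.287, edgeR), 0.37 with sgP2 (SE 0.07, adjusted p = 0.00732, edgeR) and 0.53 with sgDual (SE 0.07, adjusted p = 3.20e-05, edgeR). DESeq2 also called the first (adjusted p = 0.0107). The sgP2 call was lost without sgNC replicate 1 (0.34, adjusted p = 0.145, edgeR) or 2 (0.38, adjusted p = 0.101, edgeR). The antisense gene AC015712.2 shares 1585 exon bases with ALDH1A3 and had at most 188 counts in any library.

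ALDH1A1 (chr9:72900662-73080442), the other retinal oxidase of the set, was scarce outside AsPC-1. In Panc10.05 it did not exceed 0.0845 CPM in any library, and in BxPC3 it lay between 0.622 and 2.19 CPM with overlapping groups. In AsPC-1 it was at 52.5 and 67.4 CPM with sgNC, and the guides of each target differed. With sgP1E it was at 138 and 153 CPM, and with sgP1J at 48.4 and 58.9. The sgP1E libraries were above both sgNC libraries, and the sgP1J libraries were within or below their range. With sgP2D it was at 199.7 and 180.2 CPM and with sgP2G at 137 and 124, all above sgNC. With sgDual2 it was at 59.8 and 62.6 CPM and with sgDual3 at 41.2 and 39.0, so that only sgDual3 was wholly below sgNC.

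The 2 guides of a target differed in ALDH1A1 by 1.44 for P1 (sgP1E over sgP1J, SE 0.12, adjusted p = 5.70e-06, edgeR), by 0.54 for P2 (sgP2D over sgP2G, SE 0.12, adjusted p = 0.0321, edgeR) and by 0.61 for the dual guides (sgDual2 over sgDual3, SE 0.12, adjusted p = 0.0290, edgeR), on the log2 scale. Of all 16992 genes, 14.5%, 1.69% and 0.883% passed in these comparisons. The P2 and dual differences were lost without any 1 library (adjusted p from 0.0798 to 0.314 and from 0.155 to 0.287). Averaged over guides, ALDH1A1 did not pass against sgNC with sgP2 (1.42, SE 0.46, adjusted p = 0.129, edgeR), though DESeq2 called it (adjusted p = 0.0226). With sgP1 it did not pass either (0.73, SE 0.45, adjusted p = 0.708, edgeR), but without the libraries of sgP1J it did (1.28, adjusted p = 0.0230, edgeR). It was 3.16-fold lower with sgDual than with sgP2 (log2 SE 0.36, adjusted p = 0.00295, edgeR), with no overlap between the 4 libraries of each.

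**Figure D3:**
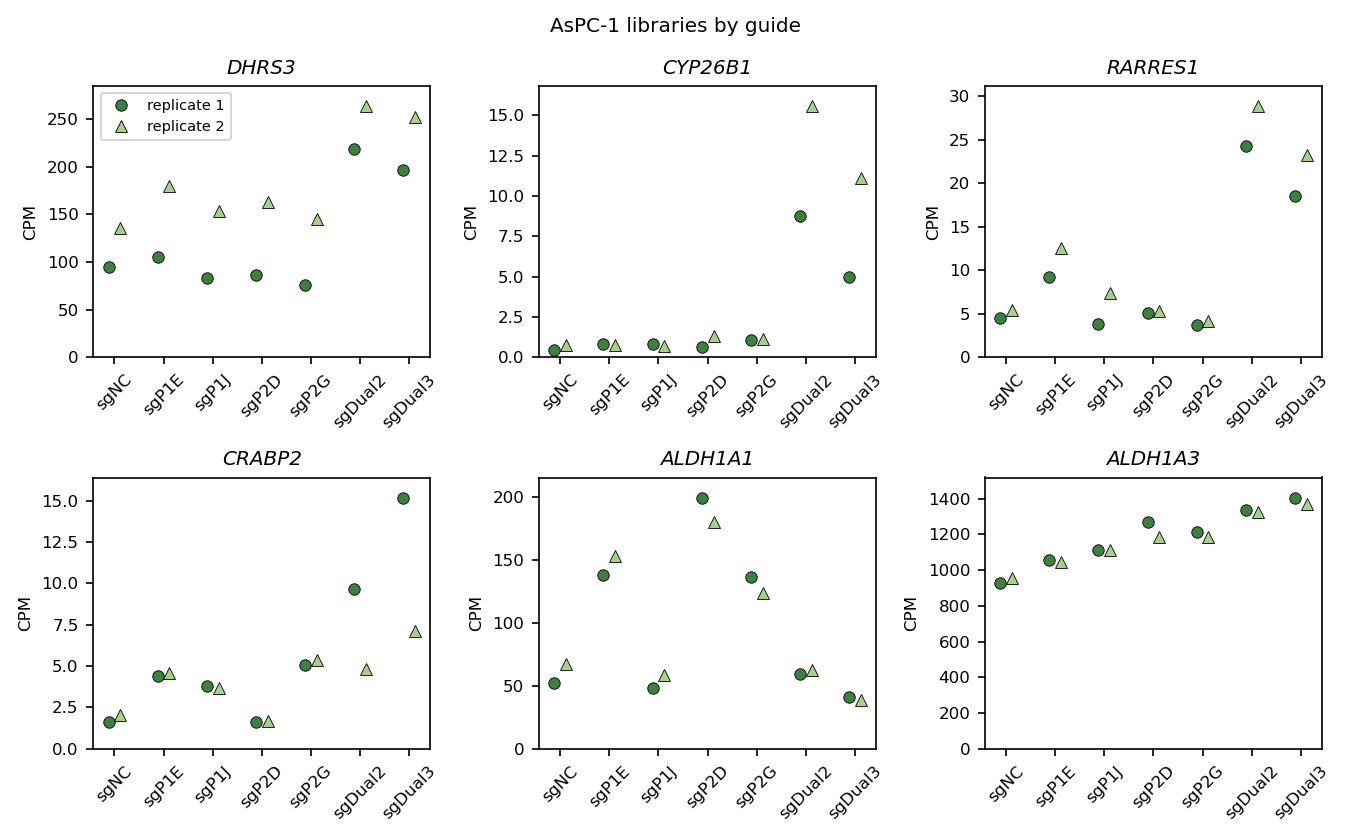
Level in CPM of 6 of the genes in the 14 AsPC-1 libraries, by guide, with circles for replicate 1 and triangles for replicate 2. DHRS3 is higher in replicate 2 for all 7 guides, ALDH1A1 separates the guides of each target, and RARRES1 and CYP26B1 are highest with the sgDual guides.

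CYP26B1 (chr2:72129238-72148038), a retinoic acid hydroxylase, had the largest rise of the tested genes in AsPC-1. It was at 0.444 and 0.771 CPM with sgNC, 0.710 to 0.839 with sgP1 and 0.619 to 1.30 with sgP2. With sgDual2 it was at 8.78 and 15.6 CPM and with sgDual3 at 4.95 and 11.1. All 4 sgDual libraries stood above the other 10. The rise over sgNC was 4.05 on the log2 scale, or 16.6-fold (SE 0.45, adjusted p = 1.88e-05, edgeR), and it passed in all 12 alternative fits with sizes from 3.71 to 4.50. Against sgP1 it was 3.67 (SE 0.32, adjusted p = 1.78e-06, edgeR) and against sgP2 3.28 (SE 0.31, adjusted p = 1.95e-06, edgeR). With 1 promoter targeted, the differences from sgNC were 0.38 for sgP1 (SE 0.47, adjusted p = 0.893, edgeR) and 0.77 for sgP2 (SE 0.47, adjusted p = 0.434, edgeR).

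In Panc10.05 CYP26B1 was at 3.03 and 2.52 CPM in NC, 7.06 and 7.02 with P1-a2, and 2.95 and 3.16 with P2-a8. Only the P1-a2 libraries stood apart. The rise was 1.34 with P1-a2 (log2, SE 0.15, adjusted p = 5.73e-10, edgeR), and P1-a2 was above P2-a8 by 1.21 (SE 0.15, adjusted p = 9.86e-09, edgeR). CYP26B1 therefore rose with P1-a2 induced in Panc10.05 and with both promoters targeted in AsPC-1. In BxPC3 it was at 18.8 and 20.3 CPM in NC and between 15.7 and 18.4 with the isoforms, with changes of -0.20 (SE 0.11, adjusted p = 0.188, edgeR) for P1-a2 and -0.19 (SE 0.11, adjusted p = 0.364, edgeR) for P2-a8.

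CYP26A1 (chr10:93073475-93077890), the paralogue whose promoter is printed above, was not tested in any line because of its low counts. Its highest level was 0.246 CPM, in BxPC3 NC replicate 2, and it had 0 counts in 11 of the 14 AsPC-1 libraries. It was not detectable above this level in the sgDual libraries (0, 0, 0.0287 and 0.0545 CPM), where CYP26B1 was between 4.95 and 15.6 CPM.

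RARRES1 (chr3:158696892-158732696), a membrane protein gene first described as induced by a retinoid, rose in AsPC-1. It was at 4.50 and 5.46 CPM with sgNC, 24.3 and 28.9 with sgDual2, and 18.5 and 23.3 with sgDual3. The sgDual libraries were all above the other 10. The rise was 2.25 (log2, SE 0.37, adjusted p = 0.000568, edgeR). With sgP2 the 4 libraries lay between 3.66 and 5.37 CPM, and with sgP1 the guides differed: 9.24 and 12.6 CPM with sgP1E against 3.79 and 7.36 with sgP1J (0.97, SE 0.25, adjusted p = 0.0258, edgeR). That difference was lost without sgP1J replicate 1 (0.55, adjusted p = 0.117, edgeR) or sgP1E replicate 2 (0.73, adjusted p = 0.152, edgeR). Against sgNC, sgP1 did not pass (0.73, SE 0.36, adjusted p = 0.595, edgeR) except without the libraries of sgP1J (1.13, adjusted p = 0.0106, edgeR). Replicate 2 was above replicate 1 for all 7 guides, by 1.05 to 1.94 times, as for DHRS3. In BxPC3 RARRES1 lay between 0.257 and 0.460 CPM, with overlap between NC and each isoform. MFSD1, on the opposite strand, shares 331 exon bases with RARRES1. It reached 4932 counts in Panc10.05 libraries in which RARRES1 had 0.

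The responses of the 2 induced lines were compared gene by gene in a joint fit of their 12 libraries. With P1-a2, 4 of the 8 genes tested differed between the lines, where 36.4% of all genes did. The log2 change was higher in Panc10.05 than in BxPC3 by 1.56 for DHRS3 (SE 0.13, adjusted p = 3.04e-09, edgeR), 1.55 for CYP26B1 (SE 0.18, adjusted p = 4.07e-07, edgeR), 0.75 for CRABP2 (SE 0.19, adjusted p = 0.00923, edgeR) and 0.70 for ALDH1A3 (SE 0.13, adjusted p = 0.000141, edgeR). With P2-a8, DHRS3, CRABP2 and ALDH1A3 differed, by 1.52, 0.87 and 0.68, and 23.5% of all genes did. In the comparison of the isoforms RBP2 and CYP26B1 differed, 2 of the 8, where 22.3% of all genes did. CRABP2 was lost for P1-a2 without Panc10.05 NC replicate 1 or 2 or BxPC3 P1-a2 replicate 1 (adjusted p of 0.0661, 0.0787 and 0.0526) and for P2-a8 without Panc10.05 NC replicate 2 (0.0628). RBP4 and RARRES1, and RBP2 against NC, could not be compared by fold because whole groups had 0 counts or 1. These genes are still among the 8 tested. With P1-a2 against NC, DESeq2 called 6 of the 8, adding RBP4 and RBP2, whose p-values are no support for a change. Line, dose and sequencing project cannot be told apart here, nor can the control construct in the comparisons against NC.

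A list of 54 other genes of retinoid uptake, storage, oxidation, reception and response, written from general knowledge, was read from the same fits. In Panc10.05 28 were tested: 12 rose and 10 fell with P1-a2 (median log2 fold change 0.05, against 0.02 over all genes), and 11 rose and 6 fell with P2-a8 (0.16 against 0.00). These are 78.6% and 60.7% of the 28, beside 62.0% and 46.2% of all genes. In BxPC3 35 were tested: 4 rose and 13 fell with P1-a2 (-0.13 against -0.01), and 2 rose and 5 fell with P2-a8 (-0.10 against 0.01). These are 48.6% and 20.0% of the 35, beside 32.0% and 6.99% of all genes. In AsPC-1 33 were tested: none passed with sgP1 (3 at an unadjusted p under 0.05, and 1 with DESeq2), AKR1B10 alone rose with sgP2 (2.40, SE 0.35, adjusted p = 0.00295, edgeR), and 10 rose and 3 fell with sgDual (0.16 against 0.00), 39.4% of the 33 beside 35.6% of all genes.

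Among the receptors, RARG fell with P1-a2 in both induced lines and rose with sgDual. With P2-a8 RARG fell in Panc10.05 but did not pass in BxPC3. It was lower with sgP2 than with sgP1, and neither passed against sgNC. RARG was at 72.0 ± 2.47 CPM in Panc10.05 NC and 26.2 ± 2.0 with P1-a2 (-1.46, SE 0.08, adjusted p = 1.31e-20, edgeR). In BxPC3 RARG went from 212 ± 6.83 to 101 ± 13.7 CPM (-1.07, SE 0.08, adjusted p = 3.84e-06, edgeR). In AsPC-1 RARG was at 37.4 ± 2.09 CPM with sgNC and 96.1 ± 6.36 with sgDual (2.57-fold higher, log2 SE 0.09, adjusted p = 1.52e-07, edgeR). RXRA and RXRB fell with P1-a2 in both induced lines, by 0.77 and 0.69 in Panc10.05 and by 0.22 each in BxPC3, whereas RARA rose in Panc10.05 (0.96) and did not pass in BxPC3 (0.08, SE 0.08, adjusted p = 0.536, edgeR).

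Retinal makers moved with line and target. RDH10, the main retinol dehydrogenase of retinoic acid synthesis, rose with sgDual from 78.5 ± 3.45 to 224 ± 18.3 CPM (1.51, SE 0.10, adjusted p = 1.10e-07, edgeR) and fell by 0.40 with P1-a2 in BxPC3 (SE 0.11, adjusted p = 0.0184, edgeR). RDH5 rose with P1-a2 in both induced lines, by 1.64 in Panc10.05 (SE 0.16) and 3.40 in BxPC3 (SE 0.34), and fell by 0.83 with sgDual (SE 0.30, adjusted p = 0.0443, edgeR). The alcohol dehydrogenase genes ADH7 and ADH1C, near 0 in the other lines, fell in BxPC3 with P1-a2 by 2.41 and 2.37, from 9.91 to 1.88 and from 12.7 to 2.48 CPM. With P2-a8 ADH7 fell by 0.78 to 5.78 CPM (SE 0.21, adjusted p = 0.0478, edgeR), and SDR16C5, another retinol dehydrogenase gene, fell by 0.49 from 28.7 to 20.5 CPM (SE 0.11, adjusted p = 0.0223, edgeR). STRA6, the cell-surface receptor for RBP4, rose with sgDual from 1.17 ± 0.485 to 7.69 ± 1.04 CPM (2.72, SE 0.40, adjusted p = 0.000157, edgeR). In BxPC3 STRA6 fell with P1-a2 (-1.30, SE 0.37, adjusted p = 0.0201, edgeR) and P2-a8 (-1.87, SE 0.40, adjusted p = 0.0156, edgeR). Its mean over the NC and P2-a8 groups there was below 1 CPM, so the P2-a8 fall is between low levels.

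Of the genes on the list known to be induced by retinoic acid, PLAAT4 fell in Panc10.05 with both isoforms, from 18.2 ± 0.588 CPM to 1.09 ± 0.455 with P1-a2 (-4.02, SE 0.16, adjusted p = 9.22e-24, edgeR) and 4.72 ± 0.338 with P2-a8 (-1.94, SE 0.13, adjusted p = 5.43e-16, edgeR). LIPE, a lipase that acts on retinyl esters, fell in Panc10.05 by 2.90 with P1-a2 and 1.43 with P2-a8. AKR1C3, an aldo-keto reductase gene, rose there by 2.55 and 2.53 and in BxPC3 with P2-a8 by 0.50, and in Panc10.05 TGM2 rose by 0.96 with P2-a8. SCARB1, a carotenoid and lipid receptor, rose in BxPC3 by 1.03 with P1-a2 and 0.58 with P2-a8. BCO1, which cleaves beta-carotene, fell in AsPC-1 with sgDual by 0.84.

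**Figure D4:**
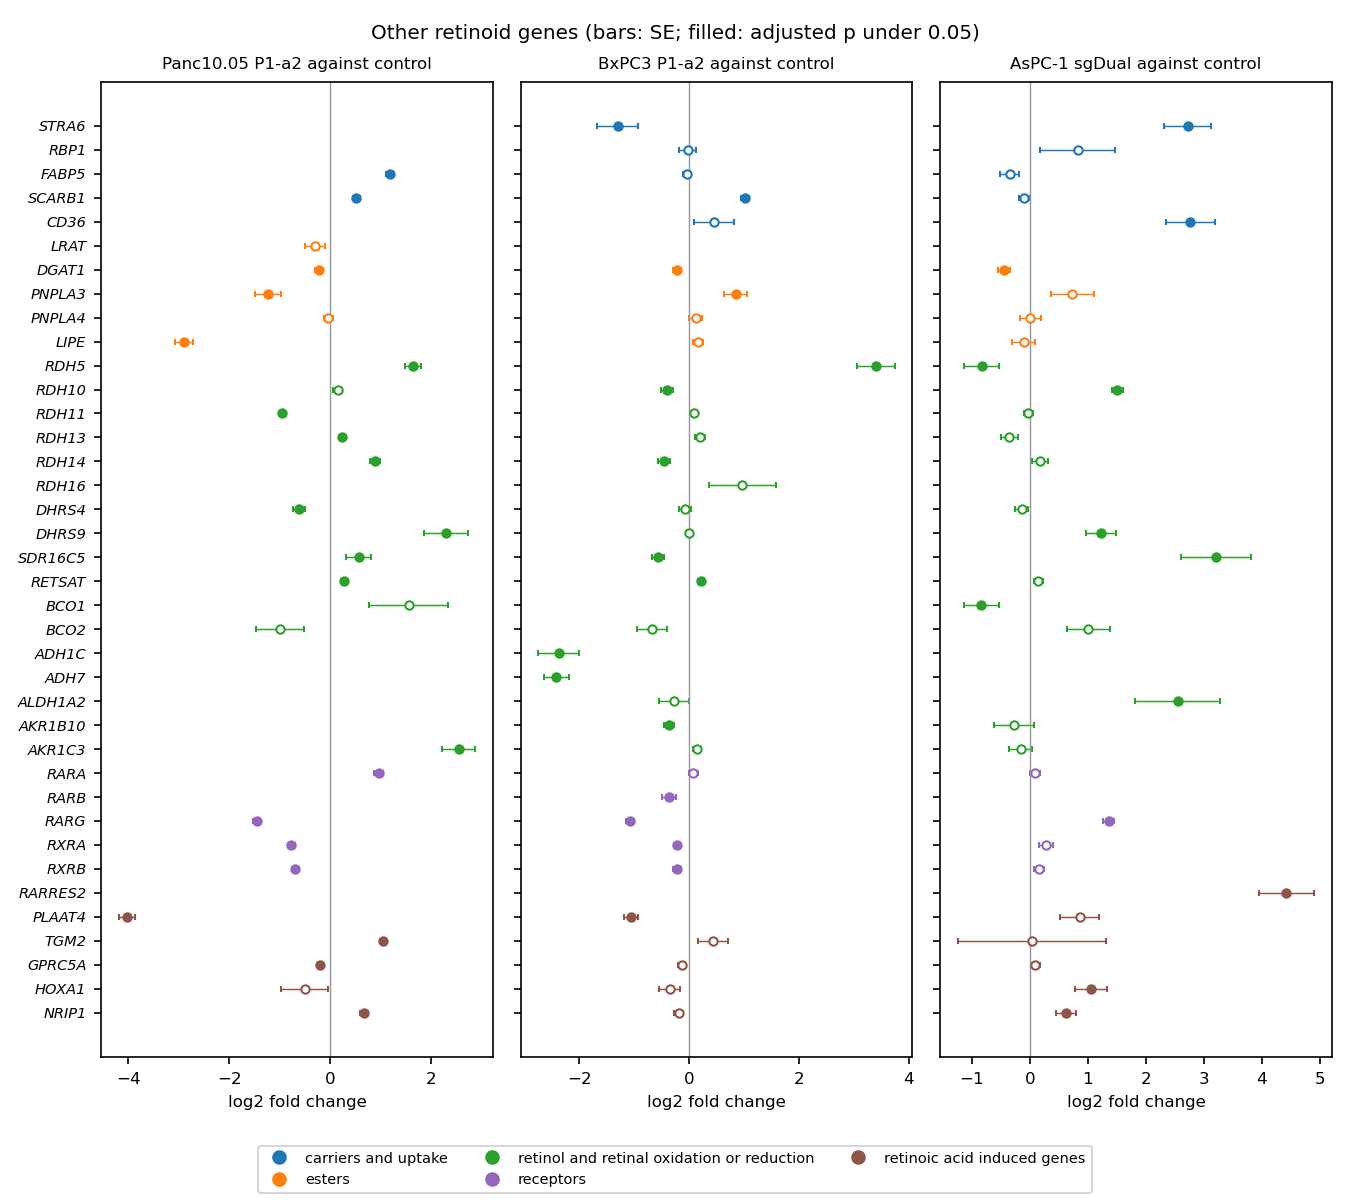
Log2 fold change against control of the other retinoid genes tested in at least 1 of 3 comparisons, with bars of 1 SE, colour by class and filled points where the adjusted p was under 0.05. An empty place marks a gene not tested in that line. RARG lies below 0 with P1-a2 in both induced lines and above 0 with sgDual.

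For the 4 genes tested in all 3 lines, the genes with the most similar pattern were found by Pearson correlation of log2 CPM over the 26 libraries, each line centred on its control libraries, among 14516 genes. Among them were CSF1 (0.940) and RDH10 (0.929) for CYP26B1, MEF2A (0.919) for CRABP2, ZNF792 (0.941) and PPP1R3B (0.922) for DHRS3, and C1S (0.920) and CADM4 (0.905) for ALDH1A3. The libraries share lines and targets and are not independent points, so these values describe likeness only.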

How the data were processed

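RNA was sequenced in 26 libraries of 3 cell lines after poly(A) selection with a directional paired-end kit, per the labels' protocols. The values are read counts per Ensembl gene, deposited by the authors without normalization in 1 table per line. The submitters' processing notes name cutadapt 1.16, STAR 2.7.9a, featureCounts 1.6.3, DESeq2 1.36.0 and the build GRCh38, with no role or order. The annotation and the strand setting are not given in the sources used here.

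Genes were kept by filterByExpr, scaled by TMM (a scaling of library totals that is robust to a few strongly changed genes) and tested with edgeR 4.0.16 (quasi-likelihood, R 4.3.3), separately in each line, with all groups of a line sharing 1 estimate of the spread. Benjamini-Hochberg adjustment covered all genes of a fit, in 18 comparisons: 12 between groups, 3 between guides of a target and 3 between the induced lines. The SE is the log2 fold change divided by the root of the F statistic. A group at 0 counts was set to a floor of 3 counts per library. Floors and counting intervals (exact, 95%) cover counting error only. In the libraries, 3 counts correspond to 0.0585 to 0.116 CPM. The scripts were run on simulated counts that took only mean levels and depths from these libraries. Every gene had the same fixed spread, with no guide or replicate effect, and only genes of at least 1 CPM were changed. The shares recovered therefore check the code and do not measure power in these data. A log2 change of 1 was recovered for 91.5% of changed genes in Panc10.05 P1-a2 against NC (16800 genes) and 79.0% in the same comparison in BxPC3 (17175 genes). The share was 96.0% in AsPC-1 sgDual against sgNC (16640 genes) and 87.3% in sgP1E against sgP1J (16631 genes). It was 58.3% in the difference between the induced lines in P1-a2 against NC (18309 genes).

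Libraries of the same group differed by more than sampling noise, with chi-square per degree of freedom of at least 5.08 in 31 pairs. In AsPC-1 these include pairs of different guides of a target, and the pairs within a targeting guide are counted again. The 9 genes, the list of 54 and the markers were chosen with earlier results of these data known. From the list of 54, the text names in each induced comparison with NC and in sgDual against sgNC the 2 largest rises and 2 largest falls with a mean of at least 1 CPM, and beside them, wherever the text needs their levels, the receptors, STRA6 and RDH10. AKR1B10 was named after its value was seen. A gene with a pattern like that of CRABP2 is not reported here. The alternatives were DESeq2 1.42.0, scaling by total counts, no filter, a replicate block, and leaving out each library or guide. Symbols matched 99.9% of identifiers, and sequences are from RefSeq. Tables and figures were made with Python 3.11.15, pandas 2.3.3, numpy 2.4.6, scipy 1.17.1 and matplotlib 3.10.9.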

Additional observations from a re-analysis of the deposited data

Results flagged for a closer look

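For 9 values the response differed between Panc10.05 and BxPC3 in a test of the difference itself (edgeR quasi-likelihood, adjusted p under 0.05, Panc10.05 minus BxPC3 on the log2 scale, 2 libraries per group). With P1-a2 against NC, 4 of 8 tested genes and 36.4% of all genes passed. The 8 include RBP4, RBP2 and RARRES1, which had whole groups at 0 counts or 1. The differences were 0.75 for CRABP2, 1.56 for DHRS3, 0.70 for ALDH1A3 and 1.55 for CYP26B1. With P2-a8 against NC, 3 of 8 and 23.5% of all genes passed. The differences were 0.87 for CRABP2, 1.52 for DHRS3 and 0.68 for ALDH1A3. For P1-a2 against P2-a8, 2 of 8 passed, which is near the 22.3% of all genes. The differences were -4.44 for RBP2 and 1.23 for CYP26B1. Line, dose and sequencing project cannot be told apart in any of the 9 values, nor can the control construct in the 7 that are against NC.

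A single library stood far from the others of its group in 1 of 52 groups of 4 examined, where chance gives about 1 in 20. ADH1C was at 0.181 CPM in sgP1E replicate 2 and at most 0.0195 CPM in the other 3 sgP1 libraries.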

How the results depend on the processing

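Over the 9 genes, 1353 alternative values of 126 results were computed: 1245 kept the call, 77 lost it, 31 gained one and none reversed a called direction. Of the 1245, 47 changed sign with neither value called. The number of the 9 genes past the threshold moved as follows, and the cause was not tested. With DESeq2 it was 1 for sgP1 against sgNC (0 with edgeR), 2 for sgP2 against sgNC (1), 2 for sgP2 against sgP1 (0) and 2 for sgP2D against sgP2G (1), and the last was also 2 with no filter. Without guide sgP1J it was 2 for sgP1 against sgNC and 2 for sgP2 against sgP1, and without guide sgP1E 1 for the latter. Leaving out 1 library gave 1 to 2 for Panc10.05 P1-a2 against P2-a8 (3 with all), 0 to 1 for sgP2 against sgNC, 3 to 5 for sgDual against sgNC (6), 0 to 1 for sgP2 against sgP1, 1 to 2 for sgP1E against sgP1J (2), and 0 for sgP2D against sgP2G (1) and for sgDual2 against sgDual3 (2). The 3 for sgDual came without sgNC replicate 1.

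Counts over all genes moved by over 1.5 times in 52 of 192 alternatives. BxPC3 P2-a8 against NC had 1232 genes, 1982 with no filter and 495 without NC replicate 2. For sgP1 against sgNC 45 genes became 81 with no filter, 242 with DESeq2, 1 without sgNC replicate 2, 262 without guide sgP1E and 1242 without guide sgP1J. For sgP2 against sgNC 581 became 1132 with DESeq2 and 57 without sgNC replicate 2. For sgP2 against sgP1 731 became 1272 with DESeq2 and 2764 without guide sgP1E. For sgDual against sgNC 6048 became 2775 without sgNC replicate 1, and for sgDual against sgP1 6505 became 4320 without guide sgDual3. With no filter, 288 became 649 for sgP2D against sgP2G and 150 became 417 for sgDual2 against sgDual3. Scaling by total counts moved the share of calls that were higher from 37.8% to 47.9% with sgP1, and from 48.5% to 59.1% with sgP2, each against sgNC. In BxPC3 it moved from 61.5% to 51.8% with P2-a8 and from 53.4% to 48.3% with P1-a2, each against NC.

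The libraries share only a replicate number: deviations of same-numbered libraries correlated at -0.0119 to 0.00733 in Panc10.05, 0.0727 to 0.131 in BxPC3 and 0.0772 to 0.339 in AsPC-1. With a replicate block, CRABP2 passed in Panc10.05 P1-a2 against NC (-0.44, adjusted p = 0.00676, edgeR), ALDH1A1 passed in BxPC3 P1-a2 against NC (-0.86, adjusted p = 0.0214) and against P2-a8 (-0.81, adjusted p = 0.0347), and CRABP2 did not pass in sgDual against sgP1 (1.12, adjusted p = 0.0553). DHRS3 in sgDual against sgNC, which passed narrowly, had an adjusted p of 0.00022 with the block (edgeR). The block moved the all-gene count from 1232 to 2886 in BxPC3 P2-a8 against NC, from 3963 to 5992 in BxPC3 P1-a2 against P2-a8, from 45 to 127 in sgP1 against sgNC, from 581 to 972 in sgP2 against sgNC, from 731 to 1204 for sgP2 against sgP1, from 2467 to 4616 for sgP1E against sgP1J, from 288 to 778 for sgP2D against sgP2G and from 150 to 558 for sgDual2 against sgDual3. Depth limits what can be said of CYP26A1, with at most 9 counts in any library, and of RBP4 and RARRES1 in Panc10.05, with at most 1.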
